A study of Mus musculus with 25 samples.

Results

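Matrix metalloproteinases (MMPs) and their tissue inhibitors (TIMPs) were followed as 9 genes, Mmp8, Mmp9, Mmp12, Mmp13, Mmp14, Mmp19, Timp1, Timp2 and Timp3, out of 24411 genes counted in mouse macrophages. They were taken by symbol from the count files, and all 9 were present. The libraries came from bone marrow-derived macrophages (BMDMs) of C57BL/6 mice and from RAW264.7, a mouse macrophage cell line. All 21 BMDM libraries shared 4 days of differentiation with 25 ng/ml M-CSF. BMDM controls (n = 3) carried no stimulus and were labelled as cultured for 4 h. IFN-LPS BMDMs, the classically activated (M1) arm, received IFN-γ at 100 U/ml and LPS at 100 ng/ml for 1, 4, 12 or 24 h (n = 3 at each time). The study calls them IFN-γ-primed, while the labels give 1 time for both agents and no separate time for IFN-γ. IL-4 and IL-13 BMDMs, the alternatively activated (M2) arms, received 10 ng/ml of the cytokine for 12 h (n = 3 each). RAW264.7 cells were cultured for 4 h without stimulus or with LPS at 100 ng/ml and no IFN-γ (n = 2 each). The 12 and 24 h groups therefore differ from the BMDM control in culture time as well as in treatment.

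MMPs are zinc-dependent endopeptidases that cut collagens, elastin and other matrix proteins, and many also cut cytokines, chemokines and cell surface proteins. Most are secreted as inactive precursors whose propeptide must be removed, often by plasmin, by furin or by another MMP, and TIMPs then block the active site. Macrophages are a classical source of the elastase MMP12 and, when activated, of collagenases and of MMP9. Several family genes lie side by side in the genome. Mmp13 (chr9:7272514-7283331), Mmp12 (chr9:7344381-7369499) and Mmp8 (chr9:7558456-7568485), all on the plus strand, sit in a row of 10 MMP genes on mouse chromosome 9 (GRCm38, GENCODE M21 annotation). Mmp9 (chr2:164940780-164955850), Mmp14 (chr14:54431612-54445364), Mmp19 (chr10:128790910-128800824), Timp3 (chr10:86300372-86349506) and Timp1 (chrX:20870166-20874735) are also on the plus strand, and Timp2 (chr11:118301069-118355740) is on the minus strand. Timp1 lies within Syn1 and Timp3 within Syn3, both on the opposite strand, and the 3' end of Mmp12 overlaps Mmp1b on the opposite strand.

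The stretches of 150 bases before the start sites of 4 members are shown because Mmp13 and Mmp14 rose and Mmp12 fell most in the IFN-LPS time course, and Timp1 rose with LPS in RAW264.7. The AP-1 motif was searched because it is described for several MMP promoters. They are RefSeq sequences on GRCm38.p6, all on the plus strand, and 7 of the 9 members were in the table of promoters. Capitals mark matches to the AP-1 motif TGANTCA and to the TATA motif TATAAA.
Mmp13, chr9:7272364-7272513: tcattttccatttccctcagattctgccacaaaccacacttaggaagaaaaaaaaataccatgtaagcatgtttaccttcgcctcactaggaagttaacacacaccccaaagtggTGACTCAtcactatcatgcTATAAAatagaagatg
Mmp12, the downstream start, chr9:7347224-7347373: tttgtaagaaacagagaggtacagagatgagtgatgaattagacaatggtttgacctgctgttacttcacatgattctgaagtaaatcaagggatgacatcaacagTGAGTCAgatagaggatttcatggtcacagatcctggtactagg
Mmp14, chr14:54431448-54431597: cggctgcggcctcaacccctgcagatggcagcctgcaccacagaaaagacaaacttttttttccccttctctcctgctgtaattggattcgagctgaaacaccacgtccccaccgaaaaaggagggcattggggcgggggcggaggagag
Timp1, chrX:20870016-20870165: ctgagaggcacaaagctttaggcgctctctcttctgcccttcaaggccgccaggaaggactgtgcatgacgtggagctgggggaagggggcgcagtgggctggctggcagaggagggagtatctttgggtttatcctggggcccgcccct

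The search ran on both strands over the 250 bases before each start. In Mmp13 the AP-1 match lay at -35 to -29 and the TATA match at -16 to -11, counted from the start site. The motif AGGAAG, bound by ETS factors of the PEA3 type, was found in the Mmp13 stretch at -109 to -104 and at -62 to -57. It was not particular to Mmp13. Matches also lay in the windows of Mmp8, Mmp14 and Timp3, in the upstream Mmp12 window and in Timp1, there at -175 to -170 and at -99 to -94. Mmp12 has a pair of start sites in the table. Only the window of the downstream one, which lies within the gene, held an AP-1 match, at -44 to -38, and it is the one shown. The upstream window, by the start of the gene, held no AP-1 match and is not shown. Which start these cells use was not tested. Of all 32851 promoters searched in the same way, 6.75% held TGANTCA, 12.4% held TATAAA and 29.5% held AGGAAG. The STAT pattern TTCNNNGAA and the STAT6-type pattern with a longer spacer were not found in the windows of the 7 members, and 7.02% and 5.85% of all promoters held them. An ISRE-type match lay in Mmp13 at -146 to -137, a motif found in 2.98% of all promoters. Matches of a loose NF-kB type, found in 45.8% of all promoters, lay in Timp1, Timp3 and the upstream Mmp12 window. TGANTCA reads the same on both strands. These are letter matches and not measured binding.

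Levels are given as CPM, a gene's sense-strand count scaled to a common total of sense-strand counts on genes, leaving out Rn45s, the 45S ribosomal precursor. Sense counts summed to 2378639 to 3357300 per library, of which Rn45s took 20.1 to 39.8%, and the rest, 1502618 to 2532496 counts, made 1 count worth 0.395 to 0.666 CPM. Fold changes are log2 fold changes ± SE from edgeR's quasi-likelihood test with TMM scaling, and a gene was called as risen or fallen when its Benjamini-Hochberg adjusted p was at most 0.01 and its log2 fold change reached 1.5 (time course and comparisons across all libraries), 0.7 (IL-4 and IL-13 against control) or 2 (RAW264.7). TMM moves fold changes away from CPM ratios. Without it the median gene shifted by -0.19, -0.53, -0.31 and -0.22 on the log2 scale at 1, 4, 12 and 24 h. The labelled cell type was checked with macrophage markers, of which 10 of 10 had counts in every BMDM group. In RAW264.7, 9 of 10 had counts and Mertk was at 0. Fibroblast markers summed to 259 to 302 CPM in the BMDM controls and were nearly absent from RAW264.7 (at most 1.25 CPM, 9 of 10 markers at 0).

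**Figure D1:**
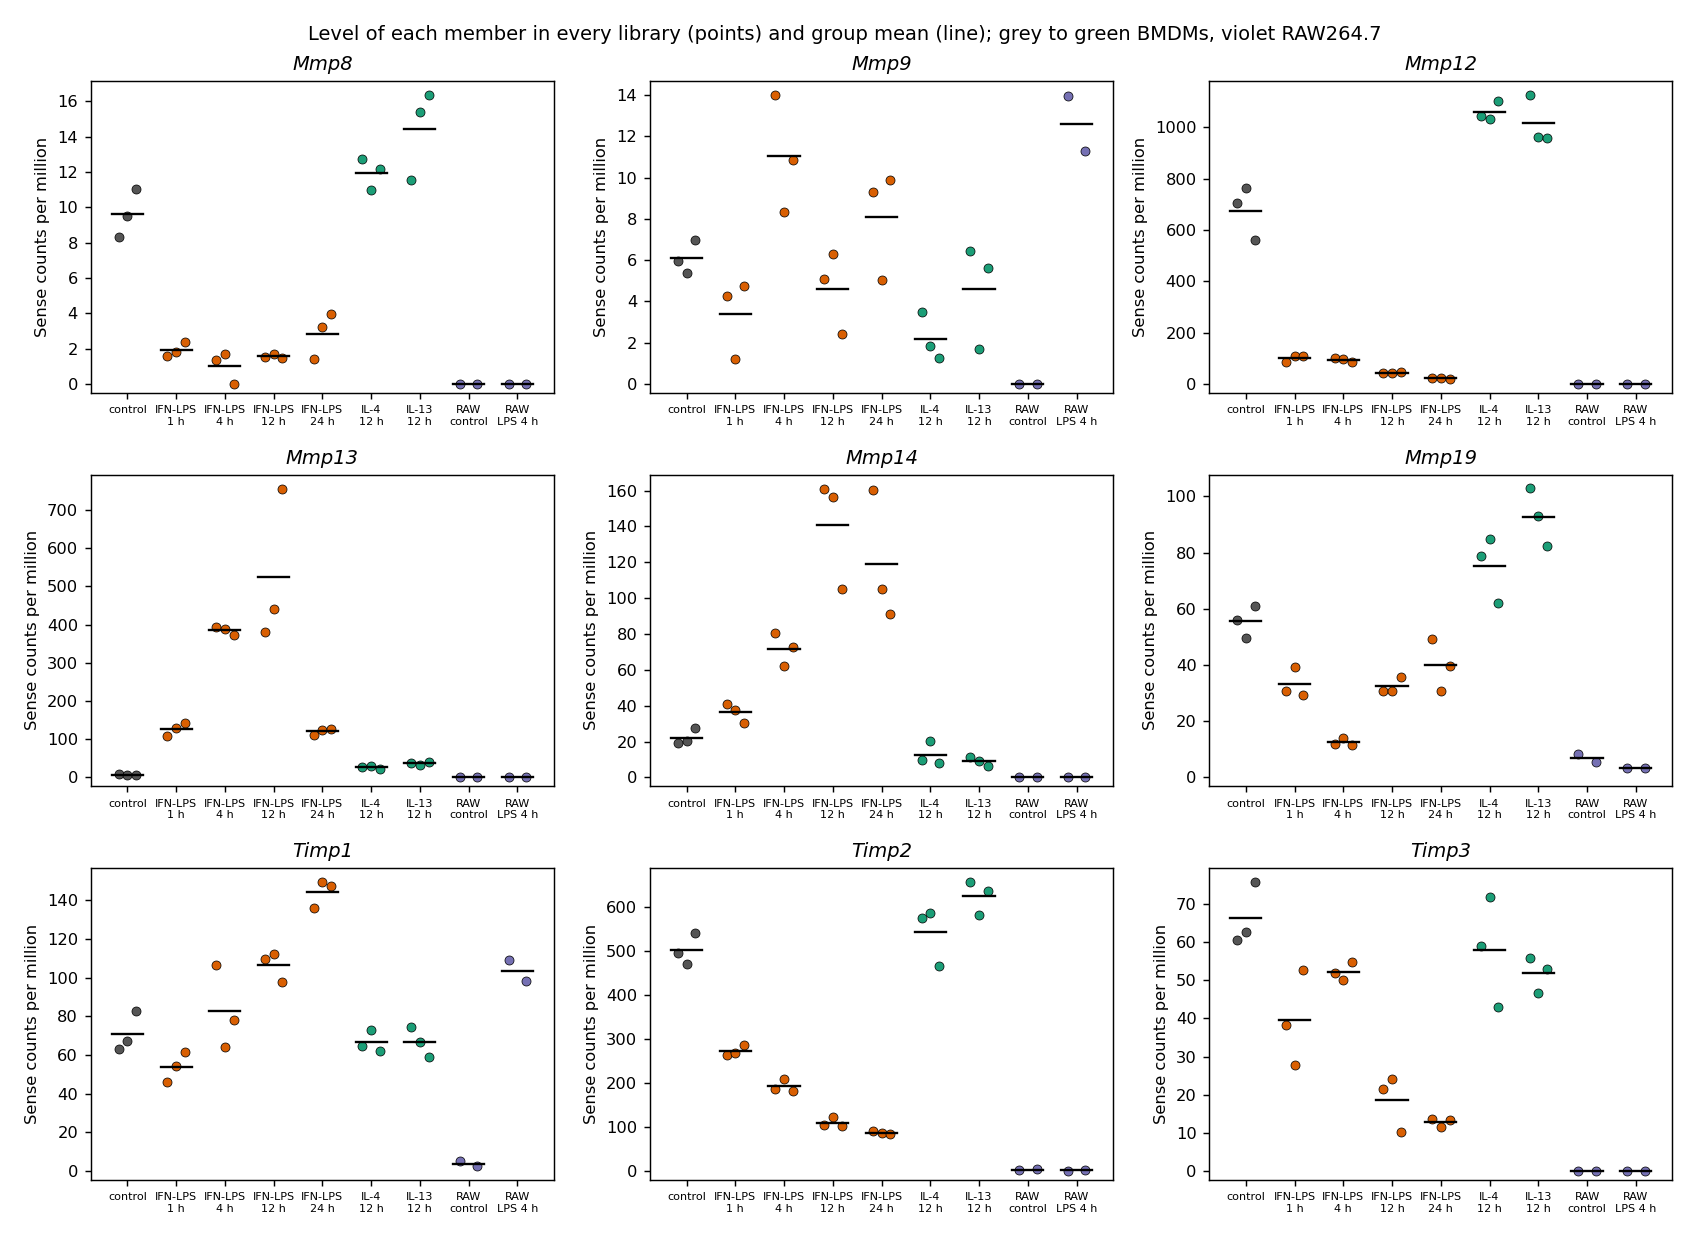
Level of each member in CPM (linear axis from 0) in all 25 libraries, shown as points for the 7 BMDM and 2 RAW264.7 groups with the group mean as a line. Mmp12 and Timp2 are high in control, IL-4 and IL-13 BMDMs and low after IFN-LPS, Mmp13 and Mmp14 show the reverse, and RAW264.7 is near 0 for all but Mmp9, Timp1 and Mmp19.

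In the IFN-LPS time course, which asks how the M1 program unfolds, the collagenase Mmp13 rose and the elastase Mmp12 fell at all 4 times, Mmp14 rose from 4 h on, and Timp2 and Timp3 fell at 12 and 24 h. At 1 h, 1 of 9 members rose (Mmp13) against 5.04% of 9568 genes tested, and 2 fell (Mmp12 and Mmp8) against 2.08%. At 4 h, 2 rose (Mmp13 and Mmp14) against 11.4% and 3 fell (Mmp12, Mmp8 and Mmp19) against 11.4%. At 12 h, 2 rose (Mmp13 and Mmp14) against 8.87% and 4 fell (Mmp12, Mmp8, Timp2 and Timp3) against 8.42%. At 24 h, 2 rose (Mmp13 and Mmp14) against 7.93% and 3 fell (Mmp12, Timp2 and Timp3) against 6.93%. The median log2 fold change of the 9 members was -0.56, 0.18, -0.47 and -0.26 at the 4 times, beside -0.03, -0.07, -0.03 and 0.02 over all genes. All 4 comparisons share the 3 control libraries. Mmp8 passed the filter that drops genes with low counts through the controls alone, so its part in the counts of fallen members is not read.

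Mmp13 encodes collagenase 3, which cuts fibrillar collagens. The controls held 8.32, 7.15 and 6.40 CPM (14, 12 and 11 counts). Libraries taken at 1 h held 109, 131 and 143 CPM and those at 4 h 393, 389 and 374 CPM. The 12 h libraries held 380, 441 and 755 CPM and the 24 h libraries 111, 125 and 127 CPM. Every treated library lay above every control library. The log2 fold change against control was 4.30 ± 0.42 at 1 h (adjusted p = 5.9e-06), 6.24 ± 0.37 at 4 h (adjusted p = 2.3e-08), 6.48 ± 0.37 at 12 h (adjusted p = 1.5e-08) and 4.26 ± 0.41 at 24 h (adjusted p = 2.8e-06). Between 1 and 4 h Mmp13 rose by 1.93 ± 0.24 (adjusted p = 3.6e-05), one of 2 members that rose at that step against 7.07% of all genes, with none falling against 6.95%.

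The level at 12 h rested on replicate 3, whose 755 CPM (1569 counts) stood above the 380 and 441 CPM (743 and 772 counts) of the other libraries. The step from 4 to 12 h was 0.24 ± 0.22 (adjusted p = 0.41) and became -0.15 without that library, so the order of these groups is not settled. The same 12 h library held the lowest Mmp14 and Timp3 values of its group. From 12 to 24 h Mmp13 fell by 2.21 ± 0.24 on the log2 scale (adjusted p = 3.3e-05), the only one of 9 members called down at that step, where 0.867% of all genes fell and 0.418% rose. The 24 h libraries held 111 to 127 CPM, all below the lowest 12 h library.

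Mmp12 encodes macrophage elastase, which degrades elastin. The controls held 705, 762 and 559 CPM. After 1 h the libraries held 86.1, 110 and 108 CPM, and after 4 h 102, 96.3 and 85.5 CPM. The 12 h libraries held 43.9, 42.3 and 47.6 CPM and the 24 h libraries 21.9, 22.5 and 20.5 CPM. No IFN-LPS library reached the lowest control, and the 12 and 24 h groups overlapped neither each other nor the earlier times. Mmp12 fell at each time, with log2 fold changes of -2.55 ± 0.11 at 1 h (adjusted p = 9.8e-25), -2.31 ± 0.11 at 4 h (adjusted p = 3.3e-23), -3.61 ± 0.12 at 12 h (adjusted p = 1.7e-29) and -4.74 ± 0.13 at 24 h (adjusted p = 1e-32). The change from 1 to 4 h, 0.24 ± 0.13 (adjusted p = 0.11), was not called and was -0.10 without TMM. The steps from 4 to 12 h (-1.30 ± 0.14) and from 12 to 24 h (-1.13 ± 0.17) passed the adjusted p but not the fold cutoff. Osteoclasts, which arise from the same precursors, were checked with 7 markers. These summed to 728 to 812 CPM in the controls, 135 to 247 CPM over the 12 IFN-LPS libraries and 1297 to 1698 CPM with IL-4 or IL-13, and Calcr, the calcitonin receptor, was at 0 in the controls. The sum was mostly Atp6v0d2 (709 CPM in the controls), and the 3 markers tested did not move alike. Atp6v0d2 fell at all 4 times (-4.43 ± 0.13 at 24 h, adjusted p = 5e-32) and Ctsk at 12 and 24 h, whereas Acp5, the tartrate-resistant acid phosphatase, rose at 4, 12 and 24 h (3.46 ± 0.16 at 24 h, adjusted p = 4.5e-24). The part of these markers in the Mmp12 result was not tested.

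Mmp14 encodes MT1-MMP, a membrane-anchored collagenase that activates pro-MMP2 and pro-MMP13. It was at 19.0, 20.3 and 27.4 CPM in the controls and at 40.9, 37.5 and 30.5 CPM at 1 h. It was at 80.5, 62.4 and 72.8 CPM at 4 h, at 161, 156 and 105 CPM at 12 h and at 160, 105 and 91.2 CPM at 24 h. The groups from control to 12 h did not overlap, while the 24 h libraries lay within or just below the range of the 12 h libraries. Mmp14 missed the threshold at 1 h (0.88 ± 0.27, adjusted p = 0.014) and rose by 2.21 ± 0.25 at 4 h (adjusted p = 7.5e-08), by 2.96 ± 0.22 at 12 h (adjusted p = 1.4e-10) and by 2.63 ± 0.22 at 24 h (adjusted p = 1.2e-09).

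Mmp8, the neutrophil collagenase, was counted thinly. The controls held 14, 16 and 19 counts (8.32, 9.53 and 11.1 CPM), and the IFN-LPS libraries held 0 to 10 counts (0 to 3.95 CPM). All 12 treated libraries lay below the lowest control. It fell, with log2 fold changes of -2.08 ± 0.45 at 1 h (adjusted p = 0.00019), -2.67 ± 0.55 at 4 h (adjusted p = 4.5e-05) and -2.28 ± 0.47 at 12 h (adjusted p = 4.7e-05). At 24 h its log2 fold change of -1.49 ± 0.39 (adjusted p = 0.0011) stood just short of the fold cutoff. Mmp8 passed the filter on low counts through the control libraries alone, so nothing is read from its calls against control. Neutrophil markers summed to 16.1 to 27.4 CPM in the controls, with 8 of 11 detected. They summed to 30.2 to 41.9 CPM at 1 h, also with 8 of 11 detected, and to 20.2 to 22.8 CPM at 24 h. Of the 11, 6 were detected at 4 h, 5 at 12 h and 3 at 24 h. Among the 3 markers tested none was called against control at 1, 4 or 12 h. S100a9 and Ngp, the latter at 0 counts at 24 h, were called fallen at 24 h, where 6.93% of all genes fell. Both were also called fallen from 4 to 12 h, where 4.45% of all genes fell. Elane, Mpo and Retnlg were at 0 in the controls, and the part of these markers in the Mmp8 result was not tested.

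Mmp9, or gelatinase B, degrades denatured collagen and basement membrane collagen. It was low in every BMDM library, with 2 to 25 counts. The controls held 5.95, 5.36 and 6.98 CPM, the 1 h libraries 4.25, 1.21 and 4.76 CPM, and the 4 h libraries 14.0, 8.35 and 10.8 CPM. The 4 h libraries all lay above the control and 1 h libraries. The rise from 1 to 4 h was called (1.94 ± 0.39, adjusted p = 3.7e-05), whereas 4 h against control passed the adjusted p only (1.35 ± 0.35, adjusted p = 0.00092) and reached the cutoff without replicate 2 of 4 h (1.53). At 12 h (2.41 to 6.28 CPM) and 24 h (5.06 to 9.87 CPM) the libraries overlapped the controls, and neither comparison with control was called (adjusted p = 0.81 and 0.13).

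Mmp19, a secreted MMP with basement membrane substrates, moved down and back. It was at 55.9, 49.5 and 61.1 CPM in the controls, at 29.5 to 39.3 CPM at 1 h, at 12.0, 13.9 and 11.4 CPM at 4 h, and at 30.7 to 35.6 CPM at 12 h. The 4 h group was lowest and overlapped no other BMDM group. Mmp19 fell at 4 h, with a log2 fold change of -1.62 ± 0.21 (adjusted p = 2.9e-09), and its change from 4 to 12 h, 1.16 ± 0.22 (adjusted p = 2.2e-05), passed the adjusted p only. At 12 and 24 h the change against control was -0.47 ± 0.16 (adjusted p = 0.014) and -0.26 ± 0.15 (adjusted p = 0.16). The 3' end of Mmp19 overlaps Tmem198b on the opposite strand. Over all libraries 1876 counts fell on the Mmp19 strand and 140 on the other, and the strand-blind count was 1461, whereas the other members had at most 0.375% of their counts on the opposite strand. Timp2 holds Cep295nl on its own strand, a gene that the count files do not list.

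**Figure D2:**
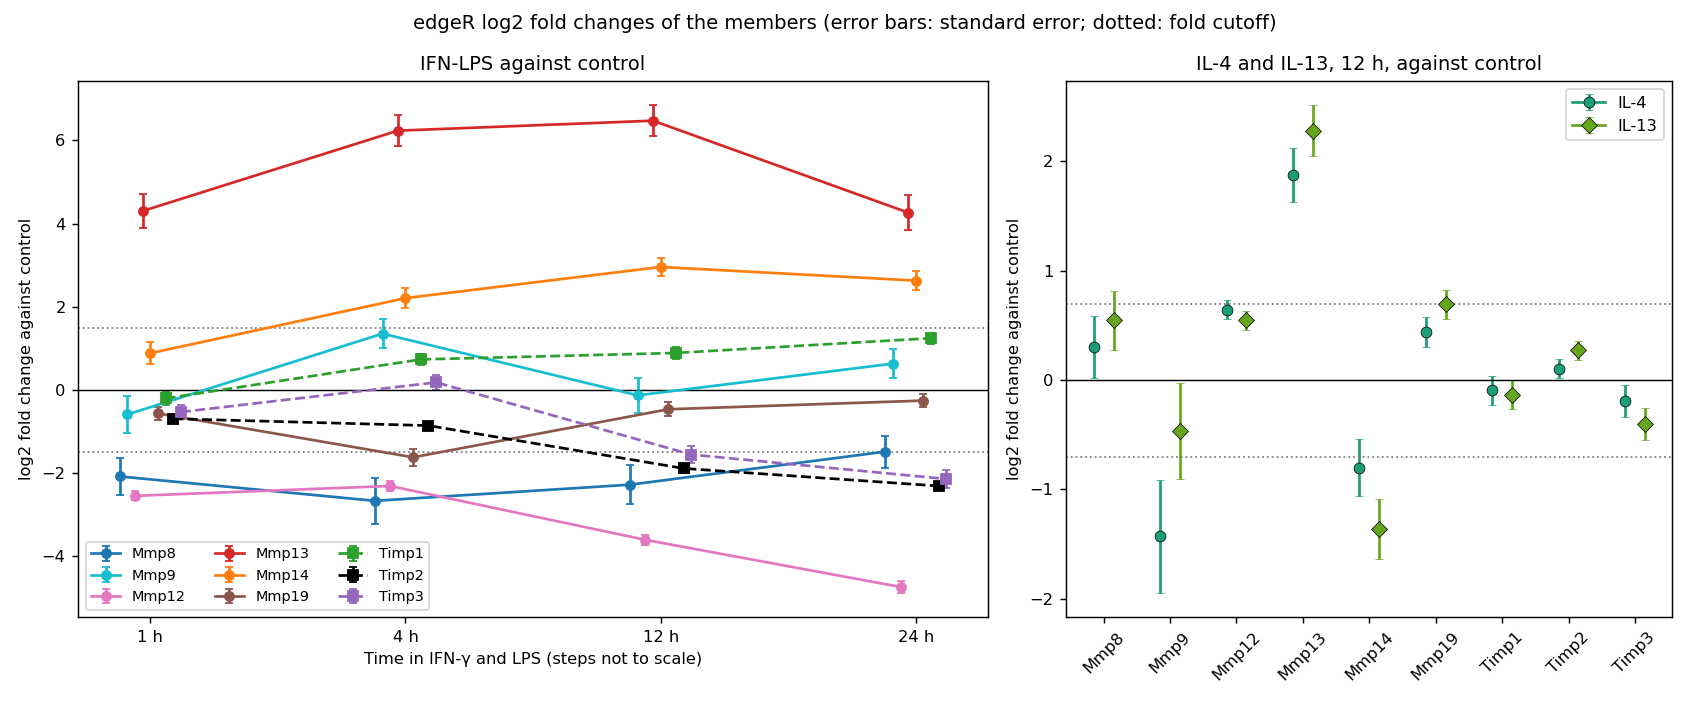
Left, edgeR log2 fold change ± SE of the 9 members at 1, 4, 12 and 24 h of IFN-LPS against control (circles and solid lines for MMPs, squares and dashed lines for TIMPs, dotted lines at the cutoff of 1.5). Right, the same for IL-4 and IL-13 at 12 h with dotted lines at 0.7, where Mmp13 alone rises past the cutoff in both.

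The 3 inhibitors parted. Timp2 binds pro-MMP2 together with MT1-MMP as well as inhibiting MMPs. It was at 495, 472 and 542 CPM in the controls, 264, 268 and 287 CPM after 1 h, and 187, 209 and 181 CPM after 4 h. The later libraries held 105, 124 and 102 CPM (12 h) and 90.7, 86.9 and 83.3 CPM (24 h). None of the 5 groups overlapped. Timp2 fell at 12 h (-1.89 ± 0.10, adjusted p = 1.1e-21) and at 24 h (-2.31 ± 0.10, adjusted p = 6.7e-25), while 1 h (-0.69 ± 0.09) and 4 h (-0.86 ± 0.10) passed the adjusted p only.

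Timp3, which is held in the matrix and also inhibits ADAM17, was at 60.6, 62.6 and 75.7 CPM in the controls, at 38.3, 27.8 and 52.8 CPM at 1 h and at 51.9, 50.1 and 54.8 CPM at 4 h. It was at 21.5, 24.0 and 10.1 CPM at 12 h and at 13.5, 11.5 and 13.4 CPM at 24 h. All 12 and 24 h libraries lay below all other BMDM libraries. At 4 h its fold change was 0.18 ± 0.17 with TMM (adjusted p = 0.37) and -0.35 without, and neither was called. Timp3 fell at 12 h (-1.56 ± 0.20, adjusted p = 1.6e-08) and at 24 h (-2.14 ± 0.21, adjusted p = 1.2e-11), and from 4 to 12 h it was the only member called down (-1.74 ± 0.21, adjusted p = 5.1e-09), where 4.45% of all genes fell and 5.2% rose and no member rose. Without replicate 3 of the 12 h group the fold changes at 12 h were -1.25 against control and -1.44 against 4 h, and without replicate 3 of the controls the former was -1.43, all short of the cutoff.

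Timp1, a secreted inhibitor with its gene on the X chromosome, went up late. It was at 63.0, 67.3 and 82.7 CPM in the controls and lower, at 46.2, 54.4 and 61.4 CPM, at 1 h (-0.20 ± 0.15, adjusted p = 0.30, not called). At 4 h it was at 106, 64.0 and 78.2 CPM, which overlapped the controls. The 4 h mean was 82.9 CPM against 71.0 CPM in the controls, a smaller rise than with TMM. It was at 110, 112 and 97.7 CPM at 12 h and at 136, 149 and 147 CPM at 24 h. The 12 and 24 h libraries lay above every control. Its fold changes, 0.73 ± 0.14 at 4 h (adjusted p = 1.6e-05), 0.89 ± 0.13 at 12 h (adjusted p = 1.8e-07) and 1.24 ± 0.13 at 24 h (adjusted p = 1.2e-11), passed the adjusted p and stayed under the fold cutoff of 1.5. Fibroblasts also express Timp2, Timp3 and Mmp14. The 10 fibroblast markers summed to 259 to 302 CPM in the controls, 98.2 to 162 CPM at 12 h and 144 to 169 CPM at 24 h, with all 10 detected. They summed to 165 to 198 CPM at 1 h and to 166 to 227 CPM at 4 h, with Lum at 0 at both times. Of 6 fibroblast markers tested none was called fallen at 4, 12 or 24 h, where 11.4, 8.42 and 6.93% of all genes fell. With 6 genes such a count is near those shares, and nothing is read from it. Pdgfrb, a receptor for PDGF, rose at 4, 12 and 24 h (2.96 ± 0.31, 2.15 ± 0.33 and 1.86 ± 0.33). The 6 markers had a median log2 fold change of 0.06, -0.77 and -0.58 at these times, beside -0.07, -0.03 and 0.02 over all genes. Of these markers 1, 2 and 3 passed the adjusted p only. Their part in these results was not tested, and in bulk RNA fewer cells of a type cannot be told apart from less RNA per cell.

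Comparing genes with each other needs levels per kb of transcript. On this scale Mmp12 took 84.8% of the summed level of the 6 MMPs in the controls (187 ± 29.1 of 221 CPM per kb). At 12 h of IFN-LPS Mmp13 took 71.5% (196 ± 75.4 of 275 CPM per kb). At 24 h Mmp14 (45.8 ± 14.1 CPM per kb) and Mmp13 (45.3 ± 3.25 CPM per kb) were level within their spread and Mmp12 was down to 5.33%. Among the TIMPs, Timp2 held 59.0% in the controls (136 ± 9.69 CPM per kb) and 12.4% at 24 h, when Timp1 held 86.2% (163 ± 7.98 CPM per kb). The summed TIMP level was 230 CPM per kb in the controls, 143 to 157 CPM per kb at 1 to 12 h and 190 CPM per kb at 24 h. The values after ± are SD over 3 libraries, and these are RNA levels, not protein or enzyme activity.

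**Figure D3:**
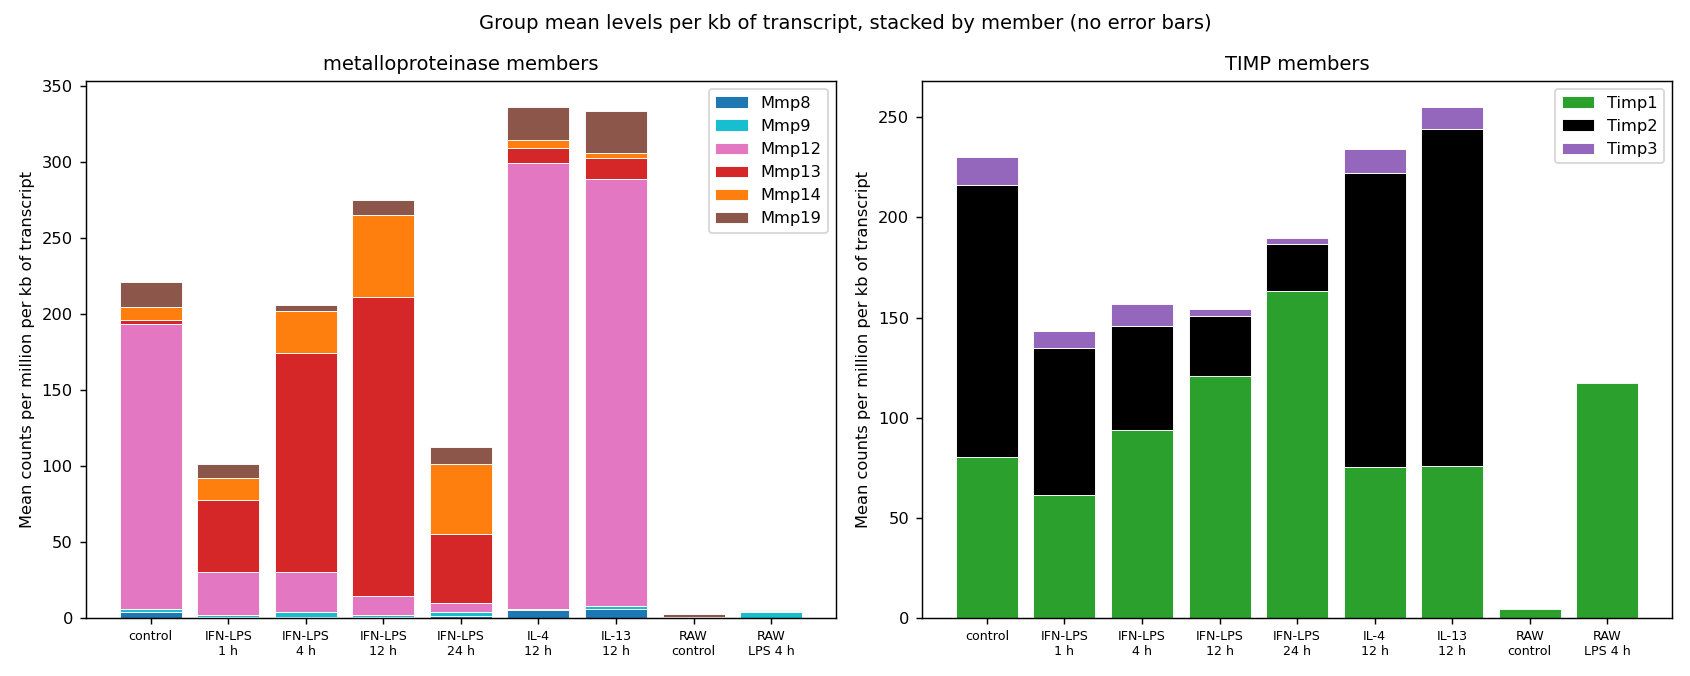
Group mean level per kb of transcript (CPM per kb, linear axis from 0), stacked for the 6 MMPs (left) and the 3 TIMPs (right) in the 9 conditions. The MMP bar is mostly Mmp12 in control, IL-4 and IL-13 BMDMs and mostly Mmp13 at 4 and 12 h of IFN-LPS, and the TIMP bar passes from Timp2 to Timp1.

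IL-4 and IL-13, the M2 cytokines, moved few members past the cutoffs. With IL-4, 1 of 9 members rose (Mmp13) against 2.22% of 9252 genes tested, and none fell against 1.64%. With IL-13, 1 rose (Mmp13) against 2.98% and 1 fell (Mmp14) against 2.38%. Mmp13 was at 27.8, 29.9 and 23.0 CPM with IL-4 and at 37.9, 33.0 and 39.4 CPM with IL-13, above all controls and below all IFN-LPS libraries. It rose by 1.87 ± 0.25 with IL-4 (adjusted p = 4.6e-08) and by 2.28 ± 0.23 with IL-13 (adjusted p = 1.7e-11).

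Mmp14 was at 11.6, 9.11 and 6.19 CPM with IL-13, below all controls, and fell by 1.36 ± 0.28 on the log2 scale (adjusted p = 0.00019). With IL-4 it was at 9.85, 20.1 and 8.32 CPM, and the change of -0.80 ± 0.26 (adjusted p = 0.03) was not called. Replicate 2 of IL-4 was the high library and overlapped the controls, and without it the change was -1.28 and was called. Mmp12, already high in the controls, was at 1042, 1033 and 1101 CPM with IL-4 and at 1124, 963 and 958 CPM with IL-13, above all controls. Its log2 fold changes of 0.65 ± 0.09 (adjusted p = 7.3e-08) and 0.55 ± 0.09 (adjusted p = 2.2e-06) passed the adjusted p and not the cutoff of 0.7.

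Mmp19 with IL-13 (103, 92.9 and 82.2 CPM, all above the controls) stood at the same edge, with 0.69 ± 0.13 (adjusted p = 7.3e-05). Mmp8 (up to 16.3 CPM over both cytokines), Mmp9 (1.28 to 6.42 CPM), Timp1 (59.1 to 74.5 CPM), Timp2 (466 to 657 CPM) and Timp3 (42.9 to 71.9 CPM) were not called with either cytokine. Mmp9 had the largest of these fold changes, -1.43 ± 0.52 with IL-4 (adjusted p = 0.057), on 2 to 6 counts a library. Rn45s counts on the antisense strand made up 0.0386 to 0.122% of all Rn45s counts in the control, 1, 4 and 12 h libraries and 0.00603 to 0.0214% in the 24 h, IL-4 and IL-13 libraries. No label gives a batch, so a difference in library handling along that line and the effect of the cytokines, of their longer culture, or of the step from 12 to 24 h cannot be told apart. The comparisons of 24 h with control and of 12 h IFN-LPS with IL-4 or IL-13 cross that line too.

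IL-13 was also compared directly with IL-4. By edgeR 0 of 9 members differed at an adjusted p of 0.01, and 0 by DESeq2, where 0.054% of all genes were higher with IL-13 and 0.0108% lower. At an unadjusted p under 0.05 there were 2, Mmp13 (0.41, 95% interval 0.06 to 0.76) and Mmp19 (0.26, 95% interval 0.0025 to 0.51). The intervals for Mmp12 (-0.27 to 0.07), Timp1 (-0.31 to 0.23), Timp2 (-0.0024 to 0.34) and Timp3 (-0.51 to 0.10) were narrower than those for Mmp14 (-1.19 to 0.07), Mmp8 (-0.28 to 0.77) and Mmp9 (-0.14 to 2.07), so a sizeable difference in the last 3 was not detectable at this depth.

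Set directly against the M2 arms at the matched time of 12 h, IFN-LPS gave the same pair of members up and the same 3 down in both comparisons, which share the IFN-LPS libraries. The groups lie on either side of the split in Rn45s antisense share, so treatment and a difference in library handling cannot be told apart here. Mmp13 was higher by 4.64 ± 0.26 than with IL-4 and by 4.23 ± 0.25 than with IL-13, and Mmp14 by 3.79 ± 0.25 and 4.35 ± 0.27. Mmp12 was lower, with log2 differences of -4.22 ± 0.12 and -4.13 ± 0.12, as were Timp2 (-1.96 ± 0.10 and -2.14 ± 0.10) and Mmp8 (-2.55 ± 0.44 and -2.80 ± 0.42). Adjusted p-values ran from 9.9e-45 to 1e-06. Mmp8 passed the filter on low counts through groups other than IFN-LPS, so nothing is read from its calls here. Of 10612 genes tested, 8.58% were higher and 7.46% lower against IL-4, and 8.59% and 7.44% against IL-13. Mmp12 at 42.3 to 47.6 CPM after IFN-LPS stood against 958 to 1124 CPM in the 6 M2 libraries, and Mmp13 at 380 to 755 CPM against 23.0 to 39.4 CPM. Timp1 was higher by 1.02 ± 0.13 and 1.05 ± 0.13 and Timp3 lower (-1.33 ± 0.21 and -1.13 ± 0.21), as was Mmp19 (-0.87 ± 0.15 and -1.13 ± 0.15), at adjusted p-values past the threshold but short of the fold cutoff.

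RAW264.7 cells held little MMP RNA. In the control libraries Mmp8, Mmp9, Mmp13 and Timp3 had 0 counts, Mmp12 had 3 and Mmp14 had 1 over both libraries, and all 9 members were called lower than in BMDM controls, where 18.3% of all genes were lower and 14.9% higher. The members at 0 in these libraries passed the filter on low counts through other groups, so nothing is read from that count. Timp3 was at least 95.5-fold higher in BMDM controls, taking 3 counts over the RAW264.7 group as the floor, and Mmp13 at least 10.5-fold. For Mmp12 the ratio of BMDM to RAW264.7 controls was 970 (95% counting interval 332 to 4706), and for Mmp14 it was 96.0 (16.9 to 3826). Intervals and floors here cover counting error only. Mmp19 (8.26 and 5.62 CPM), Timp1 (5.05 and 2.34 CPM) and Timp2 (1.84 and 4.68 CPM) were detected in both control libraries and their log2 differences from BMDM controls were -3.23 ± 0.24, -4.48 ± 0.27 and -7.49 ± 0.20.

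LPS for 4 h changed this in a pair of genes. Mmp9 went from 0 and 0 counts to 30 and 27 counts (13.9 and 11.3 CPM), and Timp1 from 5.05 and 2.34 CPM to 109 and 98.2 CPM. Only 3 members had enough counts to be tested in RAW264.7. Mmp9 and Timp1 passed that filter through the LPS libraries, since their control libraries alone fell short of it. Both were called risen, and nothing is read from those calls. Over all 9406 genes tested 2.39% rose and 0.829% fell, and no share of members is read against this. Mmp9 was at least 18.04-fold higher with LPS, with the same floor of 3 counts over the group. Timp1 rose by 4.96 ± 0.23 on the log2 scale (adjusted p = 1.9e-97). Mmp19, at 3.25 and 3.34 CPM with LPS, changed by -0.88 ± 0.45 (adjusted p = 0.11). Mmp13, the leading member of the BMDM response, had 1 count in each LPS library (0.465 and 0.418 CPM), Mmp14, Mmp8 and Timp3 had 0, and after 4 h of stimulation BMDMs held 875 times the Mmp13 level of RAW264.7 (95% counting interval 242 to 7234) and at least 108-fold more Mmp14.

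The difference between the responses at 4 h was tested as an interaction, RAW264.7 LPS against its control minus BMDM IFN-LPS against its control. It was 5.95 ± 1.21 for Mmp9 (adjusted p = 4.8e-05), a value that depends on the prior count, since Mmp9 had 0 counts in the RAW264.7 controls. For Timp1 it was 4.13 ± 0.32 (adjusted p = 2.2e-18). Of all genes, 5.29% had a called positive difference and 7.16% a negative one. For Mmp19 it was 0.65 ± 0.54 (adjusted p = 0.39) and for Timp2 0.25 ± 0.64 (adjusted p = 0.85), and for Mmp12, which had 3 and 4 counts over the RAW264.7 groups, it was 2.69 ± 1.05 (adjusted p = 0.048), and none of these was called. For the other members, at 0 to 2 counts in each RAW264.7 group, no value is given. In plain CPM after 4 h of stimulation, Mmp9 stood at 11.3 and 13.9 in RAW264.7 and at 8.35 to 14.0 in BMDMs, and Timp1 at 98.2 and 109 against 64.0 to 106. TMM scaling turned the order of the means, with Mmp9 at 9.36 and 11.9 against 11.7 to 18.6 CPM and Timp1 at 81.4 and 93.6 against 89.3 to 142 CPM, and the libraries overlapped on both scales. The BMDMs had IFN-γ as well as LPS, and cell type and stimulus cannot be told apart here.

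The rest of the family was mostly at low levels. Of 18 other MMP and TIMP genes in the files, 14 stayed below 5 CPM in every condition, 4 of them with no count anywhere. Mmp25, the membrane-type MT6-MMP, had 0 counts in the controls and was called risen at 1, 4 and 12 h, reaching 9.37 CPM at 4 h, at least 15.7-fold over control. It passed the filter on low counts through IFN-LPS libraries alone, so nothing is read from its calls against control. It fell from 12 h (7.89 CPM) to 24 h (0.442 CPM, adjusted p = 7.8e-07). Mmp2, or gelatinase A, was at 35.8 CPM in the controls, at 20.6 to 41.9 CPM after IFN-LPS, and was not called at any time. Mmp3 (stromelysin 1) reached 7.97 CPM at 24 h and Mmp27 7.67 CPM with IL-13. Mmp3 was called higher at 12 h of IFN-LPS than with IL-4 (adjusted p = 0.0013), where it had 3 counts in all, and Mmp27 lower than with IL-13 (-2.05 ± 0.53, adjusted p = 0.0007). Mmp25 was called higher than in both M2 arms, where it had no counts. Mmp2, Mmp3 and Mmp27 had 0 counts in the RAW264.7 controls and were called lower there than in BMDM controls, by at least 51.5-fold for Mmp2 with a floor of 3 counts over the group. Genes at 0 in a group passed the filter on low counts through other groups, so nothing is read from such calls.

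A list of 23 genes that activate, bind or inhibit MMPs, plasmin or related proteases was counted beside the members, with 17 of them tested in the time course. At 1 h, 2 rose and none fell, at 4 h 4 rose and 3 fell, and at 12 h and at 24 h 1 rose and 4 fell, against the shares of all genes given above. Plau, the urokinase that turns plasminogen into plasmin, was at 185 CPM in the controls and 404 CPM at 1 h, a change of 1.32 ± 0.11 that passed the adjusted p only. Plau fell at 4 h (-1.68 ± 0.15, adjusted p = 1.6e-13), at 12 h and at 24 h (-3.03 ± 0.16, adjusted p = 4.4e-21). Its receptor Plaur rose by 2.77 ± 0.11 at 4 h (adjusted p = 2.2e-27), from 79.5 CPM in the controls, and stood at 32.9 CPM at 24 h. Plat, the tissue plasminogen activator, was called risen at 1 h (3.27 ± 0.44) and 4 h (4.70 ± 0.37) and not called at 12 or 24 h. It had too few counts to be tested over the control, IL-4 and IL-13 libraries, so nothing is read from its calls.

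Serpinb2, which inhibits urokinase, rose at 4, 12 and 24 h and was highest at 24 h, with 78.7 CPM against 16.5 CPM in the controls (2.47 ± 0.20, adjusted p = 4.9e-14). Lrp1, an endocytic receptor that clears MMPs, TIMPs and plasminogen activators, fell from 1613 to 208 CPM at 12 h (-2.65 ± 0.29, adjusted p = 1.1e-05). Adam8, a membrane protease of macrophages, fell at 4, 12 and 24 h, and the collagen-cutting cathepsin Ctsk fell at 12 and 24 h. Cd44, a hyaluronan receptor that can hold MMP9 and MMP14 at the surface, rose at 4 h (2.67 ± 0.09, adjusted p = 1.4e-29) and again with IL-13 (0.77 ± 0.08, adjusted p = 7.5e-12). With IL-4 none of 15 tested was called, where 2.22% of all genes rose and 1.64% fell. In RAW264.7, 3 of 14 rose with LPS, namely Serpinb2, Plaur and Furin, where 2.39% of all genes rose. Of 10 tested matrix genes, Col4a2 rose at 24 h, Tgfbi rose at all 4 IFN-LPS times and Vcan, the proteoglycan versican, at 4 and 12 h, and none of 9 tested was called with IL-4 or IL-13. Spp1, or osteopontin, passed the adjusted p but not the cutoff with both, at 0.56 ± 0.07 (adjusted p = 2.1e-08) and 0.60 ± 0.07 (adjusted p = 2.2e-09). In RAW264.7 Thbs1, which encodes thrombospondin 1, rose with LPS (adjusted p = 5.8e-09). In the RAW264.7 controls 9 of 10 matrix and 10 of 17 cofactor genes tested were called lower than in BMDM controls, where 18.3% of all genes were lower. Only 2 matrix genes had enough counts to be tested within RAW264.7. Most of the 10 thus passed the filter on low counts through BMDM groups, and nothing is read from the matrix count.

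**Figure D4:**
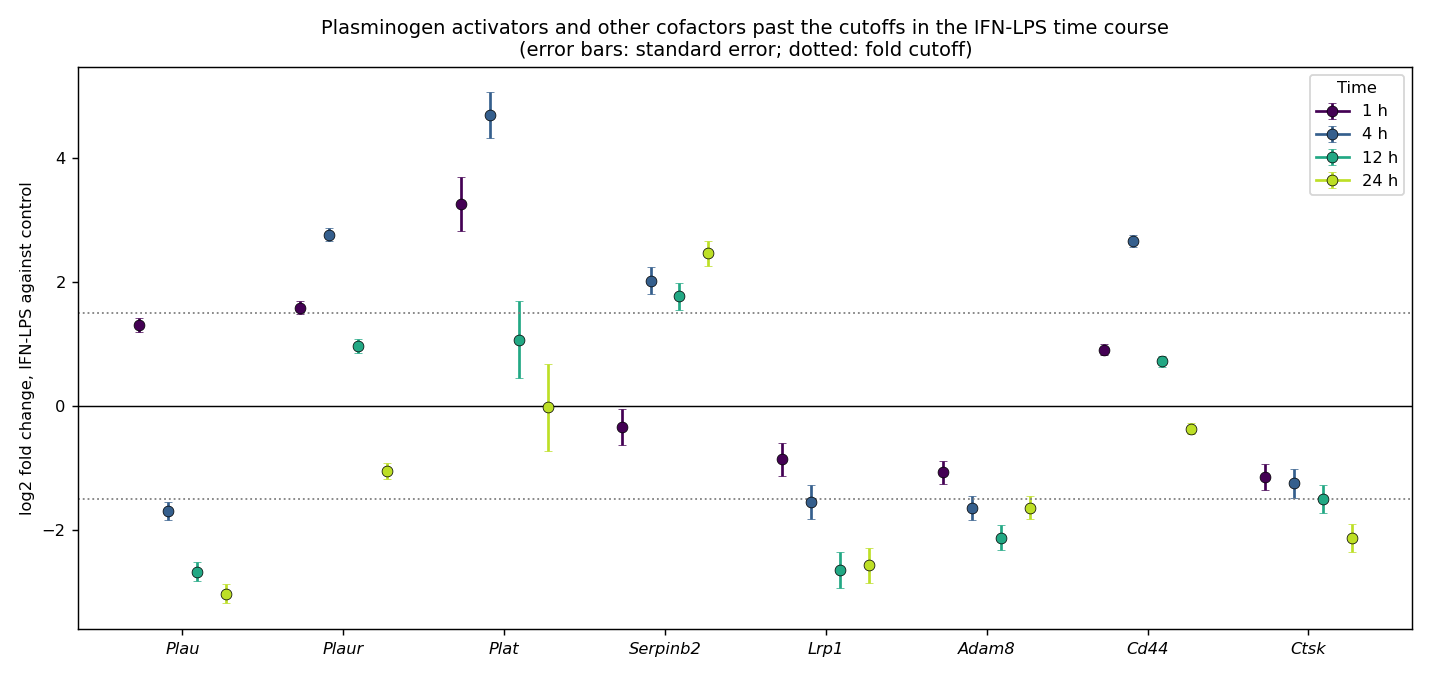
edgeR log2 fold change ± SE against control at 1, 4, 12 and 24 h of IFN-LPS for the 8 genes of the cofactor list that passed the cutoffs at 1 time or more (dotted lines at 1.5 and -1.5). Plaur, Plat and Cd44 peak at 4 h, whereas Plau and Lrp1 are lowest at 12 or 24 h.

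Across the 9 conditions the levels can be put in order by their group means in CPM. With TMM scaling of CPM, 28 of the 81 group levels (9 members in 9 conditions) moved by more than the spread between replicates, so the order holds for CPM as given here. Mmp12 ran from IL-4 and IL-13, which overlapped, through control, 1 h and 4 h of IFN-LPS, which overlapped each other, to 12 h, 24 h and RAW264.7. Timp2 was likewise lowest among BMDMs at 24 h, with IL-13, IL-4 and control overlapping as neighbours and each later IFN-LPS time separate. Mmp14 and Mmp13 had their highest means at 12 h of IFN-LPS, which overlapped the neighbouring group in both genes, and their lowest BMDM levels in control, IL-4 and IL-13. Mmp13 was lowest in control, with IL-4 and IL-13 separate above it, and Mmp14 was lowest with IL-13. For Mmp9 all neighbours overlapped except IL-4 and the RAW264.7 control.

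The genes whose mean log2(CPM + 1) over the 9 conditions ran closest to a member, among 8146 genes reaching 20 CPM in 1 condition or more, are given as a description, since all values share the same libraries. For Mmp12 they were Fcrls (Pearson r = 0.996), Atp6v0d2 (0.995), a vacuolar ATPase subunit, and Arap2 (0.991). For Mmp13 they were P2ry14 (0.986), a receptor for UDP-sugars, Cd274 (0.983), which encodes PD-L1, and Nampt (0.977). For Mmp14 they were Scarf1 (0.991), Clcn7 (0.987) and Slc7a8 (0.987). For Timp1 they were Serpinb2 (0.955), Tnc (0.945), which encodes tenascin C, and Slc39a1 (0.929). For Timp2 they were Trf (0.997), which encodes transferrin, Gpx3 (0.996) and Mfge8 (0.995), and for Timp3 Iqgap2, Serinc5 and Gpx3 (0.993 to 0.994). Mmp19 ran closest to Ctso, Arhgap10 and Zfp943 (0.985 to 0.993), Mmp8 to Atp6v1b2, Plekhm2 and Ano6 (0.978 to 0.985), and Mmp9, with its low counts, to Sptlc1, Serpinb2 and Pik3r5 (0.864 to 0.946).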

How the data were processed

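The authors removed ribosomal RNA, made directional libraries, sequenced them on an Illumina instrument, and used CASAVA 1.8.2, Trimmomatic 0.33 and, for mm10, STAR 2.5.1, per the labels and the submitters' processing notes. The annotation release and the counter's options are not given in the sources used here. The deposited values are raw read counts per gene in 3 columns (unstranded and 1 for each strand). In the tally of the sense column (on genes, ambiguous or no feature), 62.7 to 69.1% of the reads were assigned to no gene feature on that strand. Such reads need not lie outside genes. The column matching the directional kit was used, which held 93.9 to 158 times the counts of the opposite strand, Rn45s included. Rn45s was left out of library sizes and tests.

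Counts were fitted with edgeR 4.0.16 (R 4.3.3, filterByExpr, TMM, robust quasi-likelihood) over the 15 IFN-LPS and control libraries, the 9 control, IL-4 and IL-13 libraries, the 4 RAW264.7 libraries or all 25, with Benjamini-Hochberg adjustment over all genes tested. The fit was tested on simulated counts. CPM used Python 3.11.15, plain library sizes and no TMM. Levels per kb used the length of the longest GENCODE M21 transcript linked to a RefSeq mRNA. DESeq2 1.42.0, RLE scaling, no low-count filter, unstranded counts, Rn45s kept, a replicate block, fits of only the groups compared and leaving out each library were the alternatives. A fit with no scaling beyond library size and a fit without the 24 h libraries were added after seeing the data.

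The 9 members and the gene and marker lists were chosen with earlier results of these data known. All members are named. Other family, cofactor and matrix genes could be named where called, not all of them are, and Mmp2 and Spp1 were named by values seen. Names and values of the 3 most similar genes are given for each member. The study's methods describe replicate RNA samples as independent, but shared animals or cultures are not stated, so p-values measure the spread between these libraries, which may be in part technical. BMDMs treated with LPS alone were not analysed here. One gene of the cofactor list is not reported here and was left out of its counts.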

Additional observations from a re-analysis of the deposited data

Results flagged for a closer look

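In 2 members the response at 4 h differed between RAW264.7 cells given LPS and BMDMs given IFN-γ and LPS, by an interaction term in edgeR across all 25 libraries. The difference of log2 fold changes was 5.95 ± 1.21 for Mmp9 (adjusted p = 4.8e-05) and 4.13 ± 0.32 for Timp1 (adjusted p = 2.2e-18). Mmp9 was at 0 counts in both RAW264.7 controls, so its value depends on the prior count and is no bound. Groups of 2 or 3 libraries were too small for a check of single libraries against their group.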

How the results depend on the processing

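Leaving out single libraries aside, 239 counts of members called stayed within 1.5 times their value and 9 moved, and of the values for single members 983 kept direction and side of the threshold, 13 newly passed it and 3 changed sign without being called. By DESeq2, 2 members fell from 4 to 12 h in place of 1. When only the groups compared were fitted, 1 member (Mmp14) fell with IL-4 in place of 0. With IL-13, 2 members rose in place of 1 under DESeq2, RLE scaling, no low-count filter, unstranded counts, Rn45s kept and no scaling beyond library size, the second being Mmp19. Without scaling beyond library size 5 members were lower at 12 h of IFN-LPS than with IL-13 in place of 3 (Mmp19 and Timp3 were added), and the sign changed for Timp3 at 4 h (-0.35), Mmp12 from 1 to 4 h (-0.10) and Mmp9 at 12 h against IL-13 (-0.0083). Leaving out single libraries gave 0 to 2 members falling from 4 to 12 h (0 without replicate 3 of 12 h, 2 without replicate 2 of 4 h), 1 to 2 rising with IL-4 (2 without control replicate 2), 0 to 1 falling with IL-4 (1 without IL-4 replicate 2) and 1 to 2 rising with IL-13. Uncalled log2 fold changes crossed 0 for Mmp9 at 12 h (-0.38 to 0.19), from 4 to 12 h for Mmp13 (-0.15 to 0.44), Mmp8 (-0.18 to 1.02) and Timp1 (-0.0033 to 0.34), for Timp1 with IL-4 (-0.18 to 0.038), IL-13 (-0.22 to 0.0014) and IL-13 against IL-4 (-0.12 to 0.042), for Mmp9 at 12 h against IL-13 (-0.041 to 0.67), and for Timp2 in the difference between cell types (-0.76 to 1.06). Calls were gained when a library was left out for Mmp8 at 24 h (up to -1.79, without replicate 3 of 24 h), Mmp9 from 4 to 12 h (up to -1.74, without replicate 2 of 12 h), Mmp12 with IL-4 (0.75, without control replicate 2), Mmp19 with IL-13 (up to 0.78, without control replicate 3) and Timp3 at 12 h against IL-4 (-1.51, without replicate 2 of 12 h). Of 81 group levels, 28 moved under TMM-normalized CPM and 7 with unstranded counts. The causes were not tested. Replicate numbers did not pair the libraries (mean correlation of same-numbered deviations 0.0201 in the time course, with 2 of 30 pairs over 0.1), and the replicate block moved none of the 30 counts, as with 1 member rising at 1 h. Fits without the 24 h libraries changed no call among the 45 member values they gave. Mmp8 and Mmp9 rested on at most 30 counts per library, which limits what could be seen in them.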
